A study of Mus musculus with 18 samples.

Results

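Cpne5, Ptprt, Grm4, Scml2, Cpxm2, Ptgds, Tmem171 and Pacsin1 are 8 genes of 38355 in the deposited count tables. They were selected on their counts in these libraries, for large differences between the left ventricles of MHC-cycD2 sham mice and WT mice, with no stated threshold. The values of those groups therefore describe the choice and are given without a test. RNA was sequenced in 18 left ventricle libraries from mice of the (DBA/2J x C3HeB/FeJ)F1 background. The WT group (n = 5) was wild type and had no treatment. The other groups were labelled MHC-cycD2 transgenic, with cyclin D2 driven in heart muscle by a myosin heavy chain promoter: sham (n = 5), TAC (n = 3, replicates 1, 2 and 4) and Shunt (n = 5). TAC narrows the transverse aorta and loads the ventricle with pressure. The aortocaval Shunt joins aorta and vena cava, which imposes a volume load. Mice were operated on at an age of 8 weeks. The labels do not say which sham operation was done, and the time from surgery to sampling is not given in the sources used here. Since WT mice had no operation and no WT group had TAC or Shunt, transgene and sham surgery cannot be told apart in sham against WT.

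The 8 genes do not form a pathway, and most of them are better known from the brain than from heart muscle. Ptprt is a receptor-type tyrosine phosphatase whose outer part holds cells together, Grm4 is a metabotropic glutamate receptor that signals through inhibitory G proteins, and Cpne5 is a copine, a protein that binds membranes when calcium rises. Scml2 is a chromatin protein of the Polycomb group with MBT domains, known from male germ cells. Cpxm2 is a secreted member of the carboxypeptidase family, Ptgds makes prostaglandin D2 and carries small lipids as a lipocalin, Pacsin1 (syndapin I) bends membranes and binds dynamin during endocytosis, and Tmem171 is a membrane protein of little studied function. Cyclin D2, the product of the transgene, activates cyclin-dependent kinases that drive cells out of G1.

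Several measures of the libraries bear on these genes. Gene counts per library were 19297821 to 30594075, and all 8 genes were among the 14876 that passed the low-count filter. Ccnd2 was at 140.5 to 189.0 CPM (counts scaled to a common library size with TMM factors) in WT and at 17739 to 30478 CPM in 12 of the 13 libraries labelled cycD2. The library labelled cycD2 TAC replicate 2 had 228 CPM of Ccnd2, so its values are shown apart throughout. Xist was high in the 5 Shunt libraries and in TAC replicates 1 and 2, and Y-linked Ddx3y was high in the other libraries. Sex was not in the labels and cannot be told apart from the Shunt operation. The clock gene Arntl exceeded its counterpart Dbp in all 3 TAC libraries, in sham 1 and 2 and in WT 1, 2 and 3, and Dbp exceeded Arntl in the others. Replicates 2 and 5 of sham and replicates 2 and 4 of both TAC and Shunt held 84.9 to 319 CPM of Myl7, a myosin light chain of the atria, and the other libraries 0.0904 to 11.5 CPM. Heart muscle cell markers (Myh6, Actc1, Tnnt2, Myl2, Tnni3) summed to 58821 to 72709.5 CPM in WT, 74979 to 85206 in sham, 61952 to 71055 in Shunt and 49312 to 76582 CPM in TAC, with TAC replicate 2 the lowest. Of these 5 markers 1 was called higher in sham than in WT, 3 lower in TAC than in sham and 2 higher in Shunt than in TAC. Of all genes tested, 13.5%, 14.5% and 13.3% were called in these directions. In bulk tissue, fewer cells of a type and less RNA per cell cannot be told apart.

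The genes lie on 5 chromosomes, and 3 of them share a stretch of chromosome 17 (GRCm38, GENCODE M21). Grm4 (ENSMUSG00000063239) spans chr17:27422387-27521403 on the minus strand, and Pacsin1 (ENSMUSG00000040276) spans chr17:27655509-27711482 on the plus strand. Cpne5 (ENSMUSG00000024008) lies further along, at chr17:29155556-29238167 on the minus strand. Ptprt (ENSMUSG00000053141) covers chr2:161521990-162661147 and Ptgds (ENSMUSG00000015090) covers chr2:25466709-25470046, both on the minus strand and far apart on chromosome 2. Cpxm2 (ENSMUSG00000030862) is at chr7:132032687-132154739 and Tmem171 (ENSMUSG00000052485) at chr13:98686235-98694834, both on the minus strand. Scml2 (ENSMUSG00000000037) is on the X chromosome, at chrX:161117193-161258213 on the plus strand. The library kit does not keep the strand. Cpxm2 overlaps 3 annotated genes, of which Fgfr2 had the most counts, 491 over all libraries against 14336 for Cpxm2.

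RefSeq promoters (GRCm38.p6) were given for 6 of the 8 genes, not for Grm4 and Tmem171. Their starts are those of RefSeq, and for Cpne5, Ptgds, Scml2 and Pacsin1 they lie inside the GENCODE spans given above. The Scml2 and Pacsin1 promoters were at chrX:161162500-161162799 and chr17:27684989-27685288. The 250 bases before the annotated start are shown for Ptprt and Cpne5, the members with the largest positive differences between sham and WT, and for Cpxm2 and Ptgds, the most abundant members with negative ones. All are on the minus strand and are written 5′ to 3′ towards the gene, with CG dinucleotides in capitals.
Ptprt, chr2:162661148-162661397: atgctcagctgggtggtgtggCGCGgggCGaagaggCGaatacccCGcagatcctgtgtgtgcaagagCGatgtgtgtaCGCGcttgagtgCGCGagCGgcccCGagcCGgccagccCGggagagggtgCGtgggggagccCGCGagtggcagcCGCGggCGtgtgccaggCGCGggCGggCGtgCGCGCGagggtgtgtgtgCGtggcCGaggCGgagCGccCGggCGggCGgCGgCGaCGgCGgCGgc
Cpne5, chr17:29237791-29238040: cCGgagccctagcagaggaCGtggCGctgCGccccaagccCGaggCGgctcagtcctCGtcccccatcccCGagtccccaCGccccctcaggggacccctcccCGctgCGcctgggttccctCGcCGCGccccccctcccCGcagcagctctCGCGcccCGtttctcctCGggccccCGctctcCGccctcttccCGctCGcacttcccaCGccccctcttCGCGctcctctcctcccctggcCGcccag
Cpxm2, chr7:132154742-132154991: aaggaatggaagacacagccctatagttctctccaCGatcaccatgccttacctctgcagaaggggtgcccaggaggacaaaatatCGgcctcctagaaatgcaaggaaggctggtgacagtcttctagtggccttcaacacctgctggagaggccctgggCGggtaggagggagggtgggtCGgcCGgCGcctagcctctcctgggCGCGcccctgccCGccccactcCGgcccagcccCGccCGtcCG
Ptgds, chr2:25469750-25469999: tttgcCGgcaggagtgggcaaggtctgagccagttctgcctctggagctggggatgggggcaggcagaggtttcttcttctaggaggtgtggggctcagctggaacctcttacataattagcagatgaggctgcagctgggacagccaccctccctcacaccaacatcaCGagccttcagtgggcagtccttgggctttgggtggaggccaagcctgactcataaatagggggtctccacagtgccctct
The capitals fill the first sequences and are nearly absent from the last. Over 300 bases, which add 50 bases after the start, CG dinucleotides numbered 46 in Ptprt, 33 in Pacsin1, 32 in Cpne5, 17 in Cpxm2, 13 in Scml2 and 2 in Ptgds. The median over 32851 promoters of that length was 7. E2F sites (TTTNNCGC), which cyclin D activity is known to engage through the retinoblastoma protein, were searched on both strands. None of the 6 promoters held one, against 5.17% of all. The cell cycle element CHR (TTTGAA), held by 17.9% of all promoters, had no match. The E-box (CACGTG), held by 7.15% of them, had no match either. The same was true of the TATA box (TATAAA), which 13.6% of all promoters held in these windows. GATA sites (AGATAA, 11.2% of all), MEF2 sites (3.19%) and CArG boxes (1.63%) were likewise without a match. TEAD (GGAATG, 14.7% of all) matched once, in Cpxm2, 248 bases before the start.

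Ptprt was the most even of the members that were high in sham. It was at 1.30, 1.60, 2.36, 2.04 and 0.981 CPM in WT replicates 1 to 5 and at 30.0, 26.6, 27.6, 29.0 and 32.5 CPM in sham. It was at 15.9, 23.6, 27.3, 25.7 and 21.1 CPM in Shunt replicates 1 to 5. TAC replicates 1 and 4 had 6.63 and 8.63 CPM, and TAC replicate 2 had 1.38 CPM. The WT and sham levels were thus far apart with little spread in either, Shunt overlapped sham or lay below it, and TAC replicates 1 and 4 lay between them and WT. The sham to WT difference was 4.14 ± 0.35 on the log2 scale (SE), or 17.6-fold.

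Grm4, the glutamate receptor, was also high in sham and Shunt, at a much lower level. WT replicates 1 to 5 had 0.199, 0, 0.0983, 0.407 and 0.535 CPM, which are 0 to 12 reads, and the 0 reads in replicate 2 allow up to 0.155 CPM (3 counts, counting error only). Sham replicates had 1.18, 2.94, 1.89, 1.87 and 2.17 CPM and Shunt replicates 1.96, 2.41, 1.11, 1.27 and 3.51 CPM. TAC replicates 1 and 4 had 0.319 and 0.387 CPM, and TAC replicate 2 had 0.513 CPM. All 3 TAC libraries were within the WT range and below every sham and Shunt library. Sham exceeded WT by 2.95 ± 0.48 (log2, SE).

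Scml2, the X-linked Polycomb gene, was the smallest difference among the 8. It was at 0.449, 0.773, 0.491, 1.04 and 0.624 CPM in WT and at 2.79, 2.26, 2.85, 2.51 and 2.66 CPM in sham. Shunt replicates had 4.38, 2.49, 3.25, 3.65 and 3.61 CPM and TAC replicates 1 and 4 had 4.43 and 3.22 CPM, so that every Ccnd2-high library exceeded every WT library. TAC replicate 2, at 1.07 CPM, lay just above the highest WT value. The sham to WT difference was 1.94 ± 0.31 (log2, SE). The sham and WT libraries were alike in Xist and Ddx3y. Adding the mean level of 4 Y-linked genes to the fit left the difference at 1.94. That likeness fixed the outcome beforehand, so this fit is no test of the difference.

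Cpne5 had the largest mean difference and the largest spread. WT replicates had 0.249, 0.412, 0.0491, 0.226 and 0.312 CPM, from 1 to 8 reads each. Sham replicates 2 and 5 had 9.81 and 14.7 CPM, whereas sham replicates 1, 3 and 4 had 1.00, 1.66 and 1.42 CPM. Shunt replicate 4 had 7.30 CPM against 0.538, 2.16, 2.01 and 1.98 CPM in Shunt replicates 1, 2, 3 and 5, and TAC replicates 1, 4 and 2 had 0.719, 3.13 and 3.39 CPM. Every library labelled cycD2, TAC replicate 2 included, was above every WT library, and the highest values were those of libraries with high Myl7. Sham exceeded WT by 4.50 ± 1.00 (log2, SE), and by 2.12 when an atrial covariate, the mean log2 level of 3 atrial genes (Myl7, Myl4, Sln), entered the fit. With that covariate the falls of Cpxm2 (-4.24), Ptgds (-4.00), Tmem171 (-4.29) and Pacsin1 (-3.80) were larger than without it. Scml2 was at 2.20, Ptprt at 4.10 and Grm4 at 2.89.

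Ptgds was the most abundant of the 8 and low in sham. It was at 386, 381, 285, 257 and 317 CPM in WT and at 25.5, 30.7, 20.9, 27.9 and 39.1 CPM in sham. Shunt replicates had 49.2, 62.1, 14.5, 31.3 and 50.3 CPM. TAC replicates 1 and 4 had 76.9 and 152 CPM and TAC replicate 2 had 369 CPM. Sham and Shunt overlapped, both TAC libraries with high Ccnd2 were above all of them, and TAC replicate 2 was within the WT range. Sham differed from WT by -3.49 ± 0.42 (log2, SE).

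Cpxm2, the carboxypeptidase family member, was at 113, 97.2, 78.2, 82.0 and 107 CPM in WT and at 5.10, 11.5, 5.79, 5.52 and 12.7 CPM in sham. Shunt replicates had 6.89, 6.37, 4.26, 4.54 and 6.01 CPM, and TAC replicates 1 and 4 had 10.6 and 10.8 CPM. TAC replicate 2 had 84.0 CPM. That single library was at the WT level, and the other 12 labelled cycD2 stayed at or below 12.7 CPM. The sham to WT difference was -3.55 ± 0.52 (log2, SE).

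Pacsin1, the membrane-bending protein, was also low in sham and had far fewer reads than Cpxm2. WT replicates had 5.78, 4.12, 6.63, 5.83 and 9.36 CPM and sham replicates 0.480, 0.566, 0.552, 0.411 and 0.885 CPM. Shunt replicates had 1.69, 0.816, 0.235, 0.708 and 1.07 CPM, and TAC replicates 1 and 4 had 0.878 and 0.773 CPM. TAC replicate 2 had 10.4 CPM, above every WT library, while the 12 others labelled cycD2 were all below the WT range. Between sham and WT it differed by -3.44 ± 0.65 (log2, SE).

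Tmem171 differed within groups as well as between them. WT replicates 1 to 3 had 14.3, 11.1 and 10.2 CPM and WT replicates 4 and 5 had 2.40 and 2.85 CPM. Sham replicates 1 and 2 had 1.53 and 1.43 CPM and sham replicates 3 to 5 had 0.184, 0.137 and 0.266 CPM. Shunt replicates had 0.385, 1.71, 0.235, 0.335 and 0.780 CPM, TAC replicates 1 and 4 had 3.47 and 3.39 CPM, and TAC replicate 2 had 9.07 CPM. The high members of WT and sham were the libraries with Arntl above Dbp, as were all TAC libraries. Over all libraries the sham to WT difference was -3.48 ± 0.70 (log2, SE). It was -2.92 among the 5 libraries of those groups with Arntl above Dbp and -3.30 among the 5 with Dbp above Arntl.

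**Figure D1:**
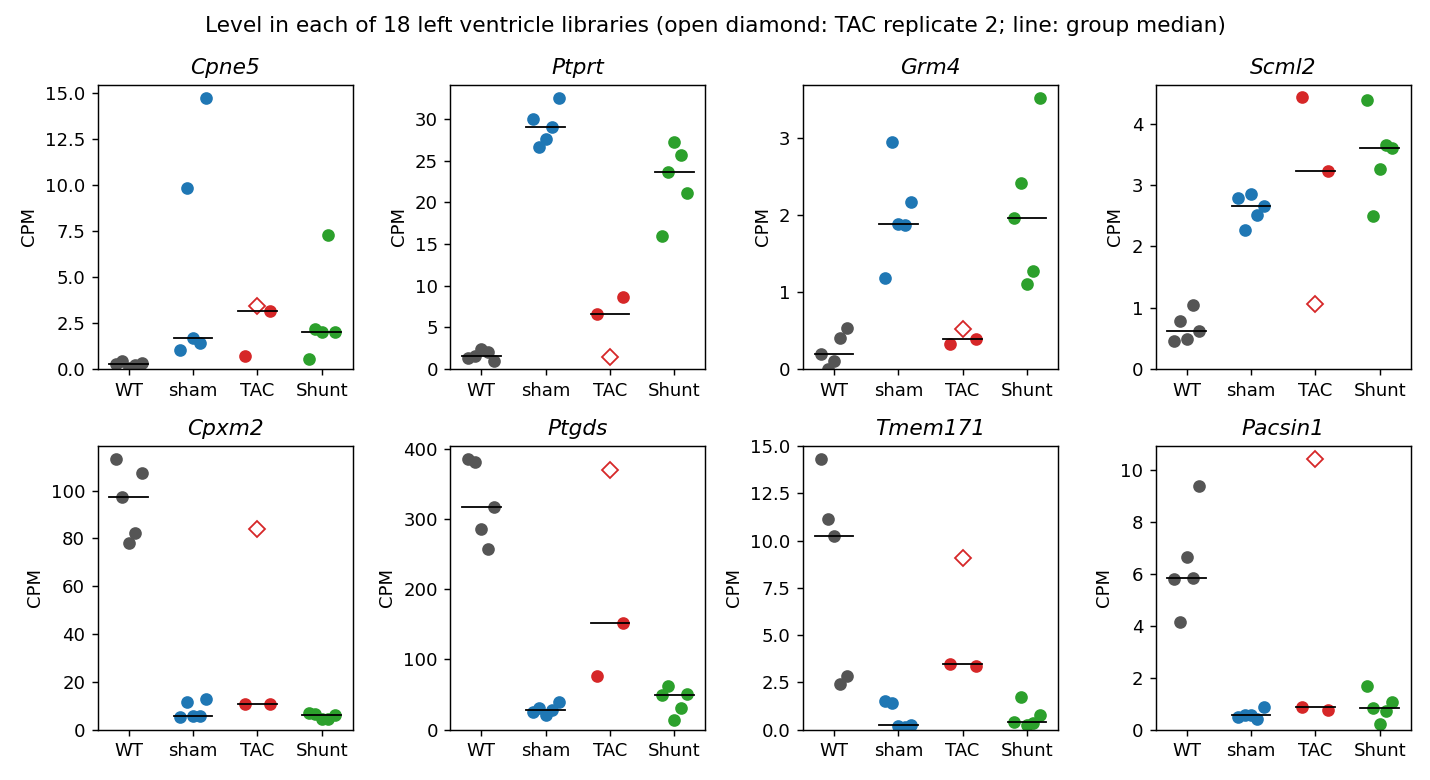
CPM of each of the 8 genes in the 18 libraries, 1 panel a gene with its own linear axis starting at 0. Points are libraries, lines are group medians (TAC with replicate 2 included), and the open diamond is TAC replicate 2, which lies within the WT range in Cpxm2 and Ptgds, above it in Pacsin1, and apart from the other 2 TAC libraries there.

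For none of the 8 did the sham and WT libraries overlap, which held for 22.3% of all genes tested. The size of these differences follows from the choice. Among all genes tested, Cpne5, Ptprt, Grm4 and Scml2 ranked 13, 17, 35 and 106 by their rise in sham against WT. Cpxm2, Ptgds, Tmem171 and Pacsin1 ranked 12, 14, 15 and 16 by their fall. Per kilobase of exon, the levels in WT ran from Ptgds at 197 ± 34.8 RPKM and Cpxm2 at 20.7 ± 3.31 RPKM down to Tmem171 at 5.17 ± 3.35 RPKM and Pacsin1 at 0.973 ± 0.294 RPKM (SD, n = 5). Ptprt followed at 0.131 ± 0.0439 RPKM, Scml2 at 0.111 ± 0.0395 RPKM, Grm4 at 0.0415 ± 0.0368 RPKM and Cpne5 at 0.0184 ± 0.00983 RPKM (SD, n = 5). Neighbours among these last 4 overlapped between libraries. In sham, Ptgds was still the highest at 17.5 ± 4.12 RPKM (SD, n = 5). The mean of Ptprt, 2.31 ± 0.181 RPKM, had passed that of Cpxm2, 1.76 ± 0.791 RPKM. In sham replicates 2 and 5, however, Cpxm2 was the higher, at 2.48 and 2.75 RPKM against 2.11 and 2.58 RPKM. Pacsin1 was the lowest in sham, at 0.0887 ± 0.0279 RPKM (SD, n = 5).

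TAC replicate 2, the library without the Ccnd2 excess, was within the WT range for 5 of the 8 genes, namely Ptprt, Grm4, Cpxm2, Ptgds and Tmem171. It was outside the range of the 12 other libraries labelled cycD2 for 6, all but Cpne5 and Grm4. Against the mean of TAC replicates 1 and 4 it was 12.6-fold higher in Pacsin1 and 7.86-fold higher in Cpxm2, and 5.53-fold lower in Ptprt and 3.59-fold lower in Scml2. Cpne5 was the exception, at 3.39 CPM against at most 0.412 CPM in WT. Its Myl7 level was 112 CPM, above the 8.09 CPM of the highest WT library. Whether atrial tissue has a part in that value was not tested.

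Neither the Shunt nor the TAC libraries entered the rule, but TAC replicate 2 was near WT in most members. Genes chosen for a difference from WT differ in that library through the choice, so the values with all TAC libraries are not independent of it, and those without replicate 2 follow. Of the 8 genes, Ptprt and Grm4 were higher in Shunt than in TAC and Cpxm2, Ptgds, Tmem171 and Pacsin1 were lower, at a Benjamini-Hochberg adjusted p under 0.05 (edgeR's quasi-likelihood test over all genes). Of all genes tested, 27.0% were called in this comparison, 13.3% higher and 13.6% lower. The median over the 8 was -0.97 (log2), against -0.01 over all genes. Ptprt was 2.04 ± 0.37 higher (log2, SE; adjusted p = 9.14e-04) and Grm4 2.32 ± 0.52 higher (adjusted p = 0.00336), with every Shunt library above every TAC library. Cpxm2 differed by -2.65 ± 0.55 (adjusted p = 0.00276), Ptgds by -2.27 ± 0.43 (adjusted p = 0.00157) and Tmem171 by -2.96 ± 0.75 (adjusted p = 0.0087), with every Shunt library below every TAC library. Shunt and TAC libraries did not overlap in 24.7% of all genes tested, 12.2% higher and 12.5% lower in Shunt. Pacsin1 differed by -2.16 ± 0.66 (adjusted p = 0.0237) although the groups overlapped. Cpne5 differed by 0.21, with a 95% interval of -1.51 to 1.94, and Scml2 by 0.26, with an interval of -0.34 to 0.86, and neither passed.

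Without TAC replicate 2, 4 of the 8 genes were called between Shunt and TAC, against 17.98% of all genes tested. Ptprt was 1.58 higher in Shunt (log2; adjusted p = 2.73e-04), Grm4 2.53 higher (0.0118), Ptgds differed by -1.46 (0.0192) and Cpxm2 by -0.92 (0.049). Tmem171 kept a difference of -2.33 with an adjusted p of 0.0682. Pacsin1 turned to 0.13 (adjusted p = 0.892, 95% interval -0.83 to 1.08), so its call rested on that library. With the Arntl to Dbp difference as a covariate, Tmem171 differed by -0.72 (adjusted p = 0.275) and Pacsin1 by -2.50 (adjusted p = 0.0754). All 3 TAC libraries were on the Arntl side and all 5 Shunt libraries on the Dbp side, so clock state and operation cannot be told apart here.

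Against sham, TAC ventricles had 4 of the 8 genes called higher and 2 lower, and 30.9% of all genes tested were called, 16.4% higher and 14.5% lower. This comparison shares the sham libraries with the choice. The 2 that fell had been high in sham: Ptprt by -2.40 ± 0.37 (log2, SE; adjusted p = 2.11e-04) and Grm4 by -2.29 ± 0.53 (adjusted p = 0.0032). The 4 that rose had been low in sham. Ptgds changed by 2.79 ± 0.44 (adjusted p = 2.92e-04), Tmem171 by 2.86 ± 0.76 (0.00955), Pacsin1 by 2.79 ± 0.71 (0.00695) and Cpxm2 by 2.11 ± 0.54 (0.00873). Cpne5 (-1.25, 95% interval -2.99 to 0.49) and Scml2 (0.15, interval -0.45 to 0.76) did not pass. With the atrial covariate Cpne5 differed by -1.30 at an adjusted p of 0.0296.

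Without TAC replicate 2, Ptprt (-1.95, adjusted p = 4.58e-05), Grm4 (-2.51, 0.0101) and Ptgds (1.97, 0.0028) were still called between TAC and sham, against 21.67% of all genes tested. Tmem171 was at 2.22 (adjusted p = 0.075), Cpxm2 at 0.38 (0.421, 95% interval -0.23 to 0.98) and Pacsin1 at 0.49 (0.53, interval -0.50 to 1.49). Replicates 1, 2 and 4 of TAC and sham share their numbers. With only these libraries and the number as a block, Cpxm2 was at 1.69 (adjusted p = 0.0911) and Pacsin1 at 2.37 (0.119). With all TAC and sham libraries fitted alone and no block, they were at 2.11 (0.0846) and 2.79 (0.0428). With the Y-linked covariate Ptgds alone was called, at 2.44 (adjusted p = 0.0452). The differences of Grm4 (-2.38, adjusted p = 0.16), Tmem171 (2.22, 0.295) and Ptprt (-1.76, 0.0836) kept most of their size in that fit, and those of Cpxm2 (0.39, 0.841) and Pacsin1 (0.48, 0.869) were small. All sham libraries and TAC replicate 4 were Y-positive, and TAC replicates 1 and 2 were not. Within the libraries with Arntl above Dbp, TAC (n = 3) against sham (n = 2) gave -2.68 in Ptprt, -2.02 in Grm4, 2.54 in Ptgds and 1.63 in Tmem171 (log2 CPM), given as values with no test.

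Shunt ventricles had none of the 8 genes called against sham, where 0.242% of all genes tested were called. With all 18 libraries none passed an unadjusted p of 0.05 in edgeR, and DESeq2 called none either. The groups overlapped for every gene. The 95% intervals of the difference (log2) were -0.70 to 0.75 in Grm4, -0.91 to 0.20 in Ptprt, -0.11 to 0.93 in Scml2 and -0.24 to 1.29 in Ptgds. In Cpxm2 (-1.55 to 0.47), Pacsin1 (-0.76 to 2.02), Tmem171 (-1.67 to 1.47) and Cpne5 (-2.47 to 0.40) they were wider. A difference of more than 2-fold lies within the intervals of these 4 genes and of Ptgds. Without TAC replicate 2 the intervals of Ptprt (-0.67 to -0.07), Scml2 (0.05 to 0.76) and Cpxm2 (-1.03 to -0.07) did not include 0, and none of the 3 passed after adjustment (adjusted p = 0.249, 0.285 and 0.289, edgeR).

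**Figure D2:**
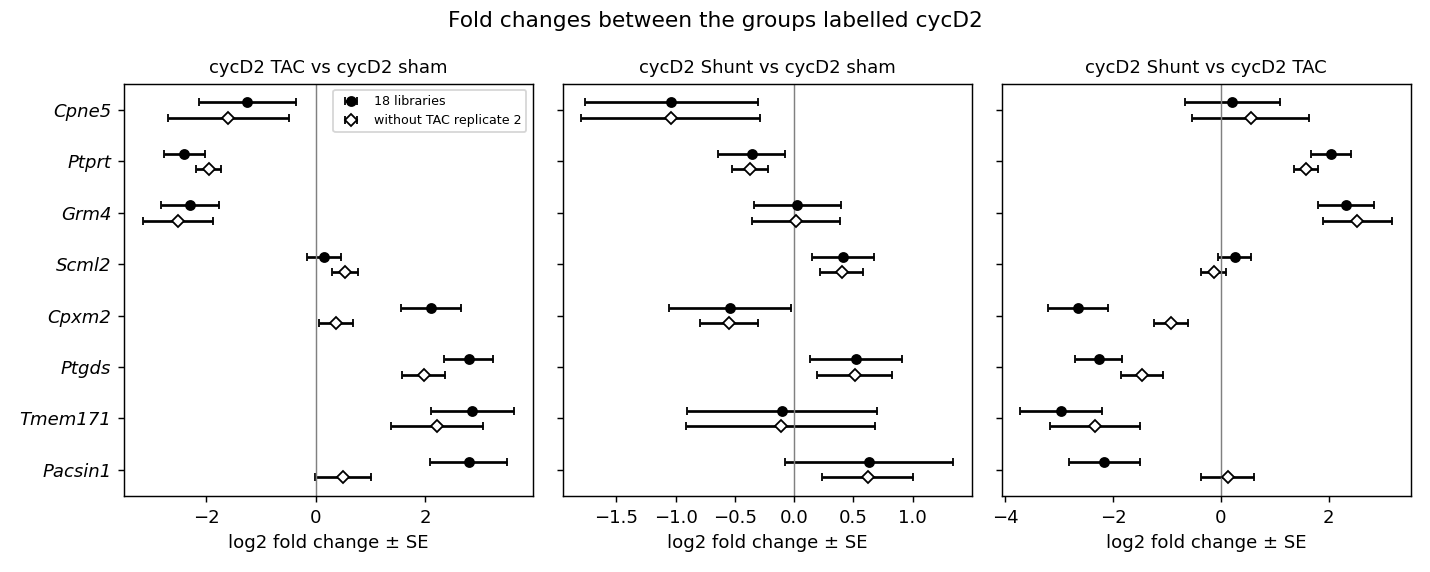
Log2 fold changes with SE of the 8 genes between the groups labelled cycD2, each panel with its own axis. Filled circles are from all 18 libraries and open diamonds from the fit without TAC replicate 2; in the TAC panels Cpxm2 and Pacsin1 move towards 0 without it, and Ptprt, Grm4 and Ptgds stay on their side.

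The spread of Cpne5 within groups followed the atrial genes for the most part. Plppr5, Sbk3 and the atrial light chain Myl4 were the protein-coding genes most alike to it over the 18 libraries (Pearson r of log2 CPM 0.95, 0.92 and 0.92), and after subtracting group means r was 0.90, 0.86 and 0.83. The points share group and library, so this is a description. In Shunt replicate 2, with Myl7 at 84.9 CPM, Cpne5 was at 2.16 CPM, close to Shunt replicates 3 and 5 (2.01 and 1.98 CPM). Those replicates had only 2.68 and 6.60 CPM of Myl7. In the 3 sham libraries with low Myl7 (1.38 to 11.5 CPM), Cpne5 was at 1.00 to 1.66 CPM, above the highest WT library. Myl4 was also above the highest WT library there, at 53.0, 40.2 and 55.8 CPM in sham 1, 3 and 4 against 19.6 CPM. Whether atrial tissue has a part in these Cpne5 values was not tested. The sum of 5 atrial markers (Myl7, Myl4, Sln, Bmp10, Sbk2) ranged from 13.3 to 42.1 CPM in WT, 73.4 to 765 in sham, 52.3 to 379 in TAC and 49.1 to 501 CPM in Shunt. Of the 4 that were tested, 3 rose in sham against WT, and none was at 0 in all libraries. Of all genes tested, 13.5% were called higher in that comparison.

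Tmem171 followed the clock measure in the same sense. Among its most alike genes were Colq and Nck1 (r = 0.95 and 0.94), with r of 0.85 and 0.86 after subtracting group means. In the subset with Dbp above Arntl its mean was 2.62 CPM in WT (n = 2), 0.196 CPM in sham (n = 3) and 0.690 CPM in Shunt (n = 5). Within those with Arntl above Dbp it was 11.9 CPM in WT (n = 3), 1.48 CPM in sham (n = 2) and 5.31 CPM in TAC (n = 3, replicate 2 included). WT was above sham in either subset, though in the subset with Dbp above Arntl the sham libraries lay further to the Dbp side than WT.

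**Figure D3:**
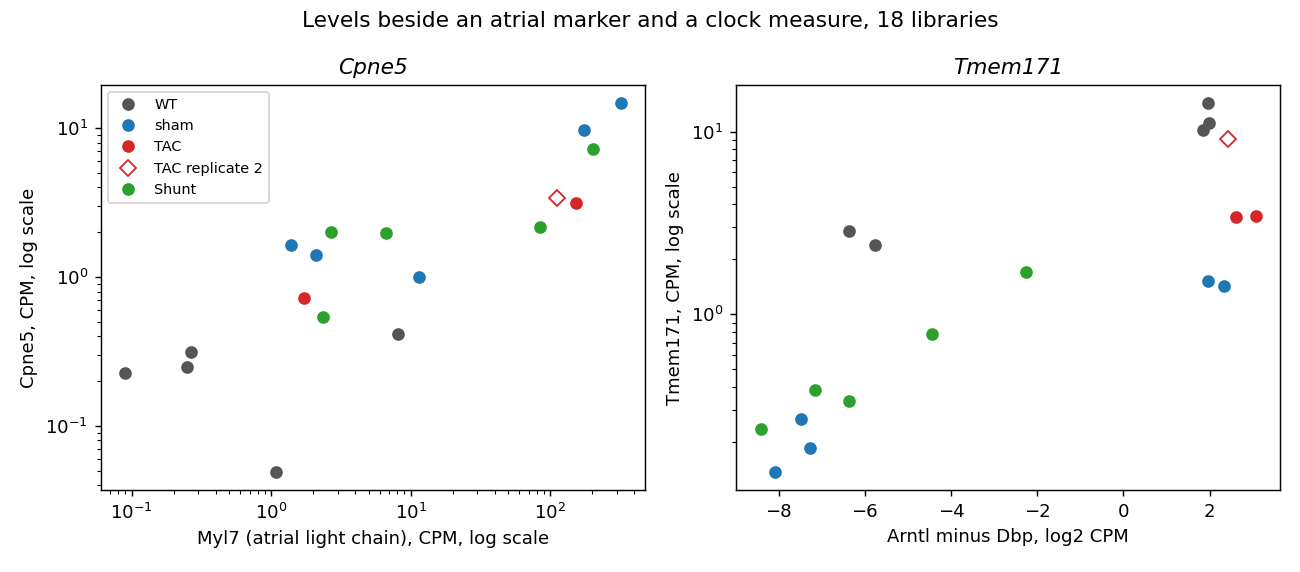
Left, Cpne5 against the atrial light chain Myl7 in CPM on log axes; right, Tmem171 in CPM on a log axis against the log2 CPM difference of Arntl and Dbp. Each point is 1 of 18 libraries, and the open diamond is TAC replicate 2. Sham replicates 2 and 5 are at the top right of the left panel, and on either side of 0 WT lies above sham in the right panel. With Dbp above Arntl, WT (-5.76 and -6.36) and sham (-7.28, -8.08 and -7.47) share no clock value.

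The same measure named the genes most alike to the other members. Ptprt was most alike to Sertm1, Obp2b and Tmod1 (r = 0.98, 0.98 and 0.97), the last of which caps actin filaments in the sarcomere. Sertm1 and Obp2b had no reads in TAC replicate 2, and Obp2b had none in WT. Scml2 was most alike to the histone chaperone Nasp, the ribonucleotide reductase subunit Rrm1 and Maged2 (r = 0.97, 0.97 and 0.96). Nasp was at 22.1 CPM in WT, 34.5 CPM in sham and 22.5 CPM in TAC replicate 2, and Rrm1 at 22.7, 40.9 and 24.7 CPM. Cpxm2 was most alike to Tspan5, Adap1 and Neurl1a (r = 0.98, 0.98 and 0.97), Ptgds to Shank1, Aqp8 and Sh2d4a (0.96, 0.95 and 0.95) and Pacsin1 to Bloc1s6, Slc43a2 and Scamp5 (0.97, 0.97 and 0.96). Grm4 had lower values, with Slc19a1, Tox and Hnrnpl (0.91 each). Without TAC replicate 2 these correlations were 0.91 to 0.98. After subtracting group means, r was lower without that library for each of the genes named here except those of Grm4. It was 0.78 with the library and 0.19 without it for Ptprt with Obp2b, and 0.79 and 0.35 for Ptprt with Tmod1. For Cpxm2 it was 0.87 and 0.49 with Adap1 and 0.84 and 0.48 with Neurl1a, and for Scml2 with Rrm1 it was 0.85 and 0.51.

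The relatives of each member, from lists of gene families and pathways, gave counts of calls against the background of 28.4% in sham against WT. In TAC against sham the background was 30.9%, or 21.67% without TAC replicate 2. Among the other copines, Cpne4 fell by 2.07 on the log2 scale in sham (adjusted p = 0.00318, from 0.522 to 0.123 CPM) and none of 6 tested rose. Cpne7 was lower in Shunt than in sham by -1.74 (adjusted p = 0.0022) and in TAC by -1.34 (0.00231), while Cpne2 and Cpne8 rose in TAC by 0.66 (0.00403) and 0.73 (5.16e-04). Cpne6 and Cpne9 were too low to test.

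Of the receptor phosphatases most like Ptprt, Ptprk rose in sham by 0.25 ± 0.06 (adjusted p = 0.00559), from 47.0 ± 2.45 to 56.0 ± 3.73 CPM (SD, n = 5), and again in TAC by 0.37 (8.58e-04). Ptprm (0.04) and Ptpru (-0.29) did not pass. Among 6 cadherin and catenin genes of the cell junctions where these phosphatases act, Ctnna1 (alpha-catenin) rose in sham by 0.38 ± 0.05 (adjusted p = 7.23e-05) and Ctnnb1 (beta-catenin) fell by 0.14 on the log2 scale (0.0336). Ctnna1 fell in TAC against sham by 0.42 on the log2 scale (1.28e-04), with -0.40 without TAC replicate 2.

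Among the relatives of Grm4, Grm7 was too low for a clear value (0.11 ± 0.69) and Grm2, Grm3, Grm5, Grm6 and Grm8 had at most 5 reads in any library. Among 14 ionotropic receptors and transporters tested, 4 rose in sham and 1 fell. Those that rose included the kainate receptor subunit Grik5 (0.43, adjusted p = 0.00357) and the glial glutamate transporter Slc1a3 (0.74, 0.00845), and the NMDA receptor subunit Grin2d fell by 1.32 on the log2 scale (1.3e-05). In TAC against sham 3 transporters rose, among them Slc1a1 by 2.08 (8.14e-05), which was called without TAC replicate 2 as well.

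Of 20 other MBT domain and Polycomb repressive complex genes tested, 6 rose in sham and none fell, a share of the list close to the background. Among them Pcgf2, a ring finger subunit, rose by 0.59 (adjusted p = 0.00142) and L3mbtl2 by 0.36 (0.00343). These shifts were small beside that of Scml2, which was chosen for its difference. In TAC against sham 3 of the 20 rose and 4 fell, again not far from the 30.9% of all genes, and without TAC replicate 2 there were 3 that rose and 2 that fell. Scml4, the nearest relative by name, rose by 2.23 (2.08e-04), or 2.01 without TAC replicate 2 (0.00198).

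Of 6 carboxypeptidases related to Cpxm2 that were tested, 1 was called in sham against WT. This was Cpe, which trims neuropeptides and hormones, and it rose by 0.43 (adjusted p = 2.81e-04), from 328 ± 9.26 to 442 ± 29.7 CPM (SD, n = 5). In TAC, where Cpxm2 itself was called higher with all libraries, Cpxm1 rose by 1.51 (3.68e-06), Aebp1, a protein of the matrix, by 1.34 (8.5e-04) and Cpz by 1.29 (0.0145). Cpxm1 and Aebp1 were called without TAC replicate 2 as well, at 1.33 and 1.01, and Cpz, at 1.21, was not (adjusted p = 0.0532). The sum of 4 fibroblast markers (Pdgfra, Dpt, Tcf21, Col1a1) was 239 to 536 CPM in sham, 712 to 1675 CPM in TAC and 310 to 392 CPM in WT, with TAC replicate 2 the highest. Its part in these values was not tested.

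Of 17 other genes of prostaglandin synthesis and signalling tested, 1 was called in sham: Ptgfr, the receptor for prostaglandin F, rose by 0.94 ± 0.24 (adjusted p = 0.00645). Hpgds, the other prostaglandin D synthase, was at 2.55 ± 0.533 CPM in WT and 2.73 ± 0.746 CPM in sham (SD, n = 5; 0.10 ± 0.23, SE). The prostaglandin D receptors Ptgdr and Ptgdr2 had at most 6 reads in any library. In TAC 5 of the 17 rose and 1 fell against sham, not far from the 30.9% of all genes. Those that rose included Ptgs2, the inducible cyclooxygenase, by 2.01 (0.00146) and Pla2g4a, which releases arachidonic acid, by 1.43 (1.83e-04). Without TAC replicate 2 these were 1.83 (0.00977) and 1.28 (0.00157), and 4 of 18 tested rose and none fell. Of 3 other lipocalins, none was called in sham.

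Pacsin1 has 2 sisters with far more reads in this tissue. Pacsin2 fell in sham by 0.41 on the log2 scale (SE 0.08; adjusted p = 0.00114), from 312 ± 20.7 to 235 ± 27.5 CPM (SD, n = 5), and Pacsin3, the form of muscle, was at 209 ± 19.1 and 194 ± 21.5 CPM and did not pass. Of 26 relatives and partners in membrane bending tested, 6 fell and 1 rose. Those that fell included Cav2 (by 0.47 on the log2 scale, adjusted p = 1.14e-04), Sh3gl2, an endophilin (by 1.46, 0.00226), and Cavin4, the caveolar protein of muscle (by 0.67, 0.00454). In TAC against sham 8 of the 26 rose and none fell, a share close to the 30.9% of all genes called there in either direction (16.4% higher), and without TAC replicate 2 there were 6 that rose, against 21.67% of all genes called. Cavin3 (1.07, 3.32e-05) and Dnm1, the dynamin of nerve cells (0.96, 4.15e-04), were among them. Tmem174, which resembles Tmem171 in name, had 1 read in all libraries.

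Grm4 and Pacsin1, which differed in opposite directions in sham, are 134105 bases apart on chromosome 17, and Cpne5 starts 1444073 bases beyond Pacsin1. Genes were placed by their lowest coordinate, which is the end of genes on the minus strand. Of 56 other genes tested from 1 Mb before Grm4 to 1 Mb after Cpne5, 8 rose and 5 fell in sham against WT, or 23.2%, against 28.4% of all genes. Over 368 genes within 10 Mb either side the share was 24.7%. The closest of these to Cpne5 that were called included Ppil1, which rose by 0.82 (adjusted p = 1.51e-04), and BC004004, which fell by 0.61 on the log2 scale (2.79e-05). Near Grm4, Kifc5b, a kinesin, rose by 1.43 (0.0024) and Atp6v0e fell by 0.46 on the log2 scale (5.41e-04).

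**Figure D4:**
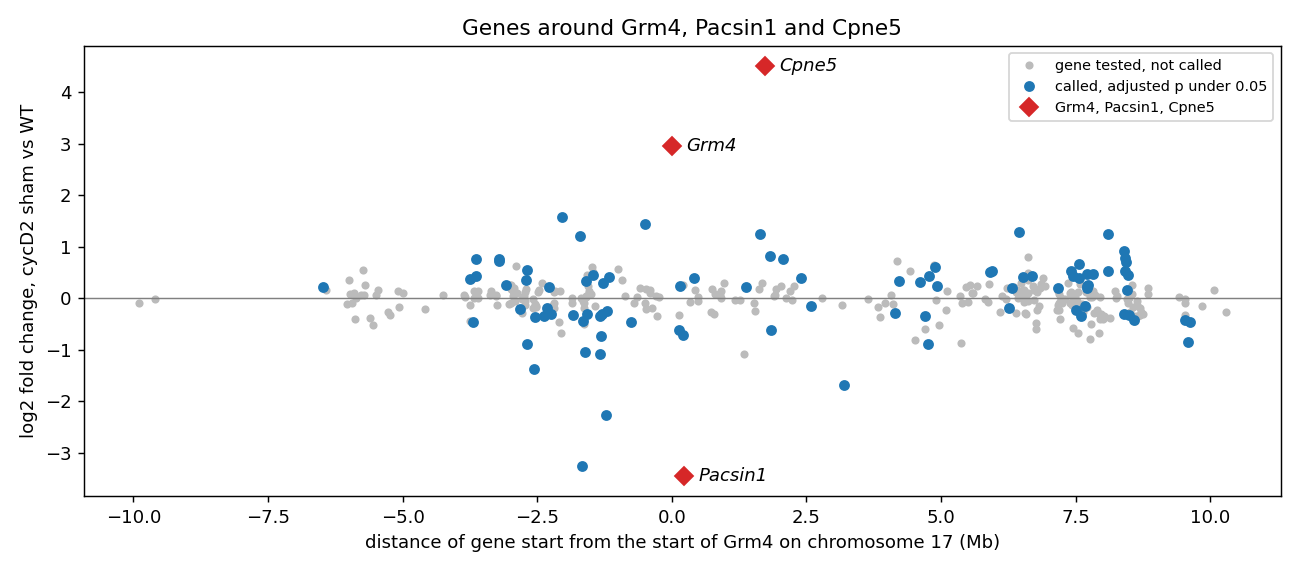
Log2 fold change of cycD2 sham against WT of the genes tested around Grm4, Pacsin1 and Cpne5. The x axis is the distance in Mb of their lowest coordinate from that of Grm4. Grey points were not called, blue points were, and the 3 diamonds are the members. They were chosen for large differences in this comparison, so their distance from most neighbours follows from the choice.

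Windows of 1 Mb around the others were set in the same way. They held calls in 22.8% of 57 genes for Ptgds and in 3 of 6 for Ptprt. The Ptprt window does not reach the promoter of this long gene. Zhx3, Top1 and Chd6, which lie beyond the end of Ptprt, rose by 0.48, 0.34 and 0.79. Near Cpxm2 4 of 16 fell and 1 rose, with Cuzd1 lower by -1.46 (adjusted p = 4.57e-04) and 1500002F19Rik by -1.86 (1.16e-04). Near Tmem171 3 of 13 fell and 1 rose, and near Scml2 2 of 8 rose and 1 fell.

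Markers of other cell types were read for the same libraries, since several members are known from nerve. The sum of 7 neuron markers was 17.6 to 22.2 CPM in WT, 23.1 to 29.5 CPM in sham, 18.8 to 23.0 CPM in TAC and 21.3 to 24.9 CPM in Shunt. None was at 0 in all libraries, and Snap25, Syt1 and Th were each under 0.4 CPM in every library. Most of the sum came from Dbh and Stmn2, which moved in opposite directions. Dbh had 6.63 to 8.60 CPM in WT and 13.3 to 17.2 CPM in sham. Stmn2 had 9.93 to 15.3 CPM in WT and 8.49 to 10.9 CPM in sham, with overlap. For the 4 neuron markers tested, sham against WT gave 2 upward calls and 1 downward call. Schwann cell markers summed to 4.27 to 12.2 CPM over all libraries and none of the 3 tested was called in any comparison. The sum of 3 meningeal markers, read because Ptgds is abundant in the meninges, was higher in sham (80.7 to 88.3 CPM) than in WT (58.3 to 72.4 CPM). Slc47a1 made up most of it, at 79.5 to 86.0 CPM in sham and 56.5 to 69.8 CPM in WT. Foxc2 was at 1.15 to 2.51 CPM in sham and 1.8 to 2.8 CPM in WT, and Slc6a20a was at or near 0. Of the 2 tested, 1 was called higher in sham and 0 lower. Of 4 endothelial and of 4 endocardial markers, 2 in either list were called lower in sham than in WT. The endocardial sum was 53.2 to 99.3 CPM in WT, 31.0 to 55.7 CPM in sham and 77.8 CPM in TAC replicate 2. Of 4 mesothelial markers 3 fell, with sums of 6.20 to 36.8 CPM in WT, 5.70 to 7.48 CPM in sham and 12.3 CPM in TAC replicate 2. Smooth muscle and pericyte markers summed to 1034 to 1182 CPM in WT, 731 to 809.7 CPM in sham, 916 to 1049 CPM in TAC and 714 to 1018 CPM in Shunt. WT and sham did not overlap in this sum, 2 of the 4 were called lower in sham than in WT, and 2 were called higher in TAC than in sham. Of 4 conduction system markers 3 were called higher and 1 lower in sham, with sums of 47.0 to 63.5 CPM in WT, 62.4 to 122 CPM in sham and 57.1 CPM in TAC replicate 2. Fast skeletal muscle markers summed to 1.63 to 2.99 CPM in WT, 21.0 to 35.6 CPM in sham and 2.37 CPM in TAC replicate 2. Of all genes tested, 28.4% were called in sham against WT, 13.5% higher and 14.9% lower. In TAC against sham 30.9% were called, 16.4% of them higher among all genes. The part of these cell types in the members' values was not tested.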

How the data were processed

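RNA of left ventricles was sequenced in 18 libraries, using an RNeasy fibrous tissue kit for the RNA and TruSeq RNA v2 for the libraries, per the labels' protocols. The authors deposited raw read counts per Ensembl gene, 1 table a library, with no normalization. The submitters' processing notes name the aligner STAR 2.3.0e, the counter HTSeq 0.6.1p1, CASAVA 1.8.2, SAMtools 0.1.19, FastQC and DESeq2 1.8, with the builds GRCm38 and mm10; annotation release and strand setting are not given in the sources used here. GENCODE M21 gave symbols and positions to 36602 of 38355 identifiers. Lines that name no gene stayed out of library sizes; the no-feature line held 13.6% to 22.8% of gene, no-feature and ambiguous reads together, most in WT.

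Genes were kept with filterByExpr (minimum count 10, by group), scaled by TMM and fitted with 1 mean per group over all 18 libraries in edgeR 4.0.16 (robust quasi-likelihood F test, R 4.3.3), with Benjamini-Hochberg adjustment over all 14876 genes tested within a comparison. The SE was derived as the absolute log2 fold change divided by the root of F, and 95% intervals are the normal ones from it. CPM are counts over TMM-scaled library size, RPKM divide by exonic length, and log2 CPM use a prior count of 2. Correlations and values within clock states are descriptions. The members, gene lists, markers and motifs were chosen with earlier results of these data known. Named beside the members were up to 3 called genes a list and 4 a window by smallest p in sham against WT, and the 3 protein-coding genes most alike to each member. Genes of the lists named for TAC or Shunt, and the level of those too low to test, were chosen after their values were seen. A few genes that these rules name are not reported here.

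Nothing in the labels ties libraries to a shared animal, and p-values cover only the spread among the sequenced samples, part of which may be technical. The lowest chi-square between libraries of a group was 7.08 per gene, so none duplicated another. Same-numbered TAC and sham libraries deviated together (correlations of 0.129, 0.151 and 0.157 over genes), above the limit of 0.1, and were taken as pairs in the blocked fit; the labels give no reason for pairing. The alternatives were DESeq2 1.42.0, relative log expression scaling, no filter, a stricter filter (1 CPM in 3 libraries), the groups compared fitted alone, the replicate block, covariates for Y-linked genes, clock and atrial genes, and leaving out each library. The block was fitted on same-numbered libraries of the groups compared, with all others left out. The method was tested on simulated data.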

Additional observations from a re-analysis of the deposited data

Results flagged for a closer look

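Cpne5 in cycD2 Shunt replicate 4, at 7.30 CPM, stood far from the other 4 Shunt libraries (0.538 to 2.16 CPM). It was the single such library among 24 groups of 5 tested, and chance flags about 1 in 20 groups. That library also had the highest Myl7 of the Shunt group, 204 CPM. Without it, the Cpne5 difference of Shunt from sham was -1.77 in place of -1.03 (log2), and neither passed the threshold.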

How the results depend on the processing

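Leaving out 1 library at a time gave 3 to 6 members called in TAC against sham and 4 to 6 in Shunt against TAC, both lowest without TAC replicate 2, and 0 in Shunt against sham. Genes called ranged from 3372 to 4526 in sham against WT, 3257 to 4924 in TAC against sham, 21 to 84 in Shunt against sham (36 with all; lowest without sham replicate 4, highest without TAC replicate 4) and 2703 to 4356 in Shunt against TAC. With the replicate block, genes called were 2027 in TAC against sham, 19 in Shunt against sham and 1027 in Shunt against TAC, with 2 members called in the last, where numbers were not taken as pairs. The groups compared alone, with no block, gave 3486, 44 and 2753 genes in the same order. In the comparisons with TAC the blocked fit also had fewer libraries, so the part of the block alone is not shown. The blocked fit changed no other count by over 1.5 times. With the Y-linked covariate 483 genes and 1 member were called in TAC against sham and 0 genes in Shunt against sham. With the clock covariate 58 genes were called in Shunt against sham and 2127 in Shunt against TAC, and DESeq2 called 233 in Shunt against sham. The causes were not tested.

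Of 862 values of single members under the alternatives, 21 changed direction, none with an adjusted p under 0.05 (edgeR or DESeq2). In Shunt against sham (log2), the Y-linked covariate gave 0.86 for Ptprt, -0.12 for Grm4, -0.033 for Ptgds and -2.52 for Pacsin1, and the block gave -0.022 for Grm4. Left-out libraries gave -0.26 to 0.19 for Grm4 (-0.12, -0.0049, -0.03 and -0.26 without sham 1, sham 4, Shunt 2 and Shunt 5). Tmem171 gave 0.99 with the clock and 0.0065 with the atrial covariate, and over left-out libraries -0.73 to 0.34, with 0.34, 0.32, 0.04, 0.13 and 0.07 without sham 1, sham 2, Shunt 1, Shunt 3 and Shunt 4. Scml2 ranged from -0.29 (without TAC replicate 1) to 0.54 in TAC against sham. In Shunt against TAC, Cpne5 gave -0.22 without TAC replicate 1 and -0.52 without Shunt replicate 4, with 0.55 at most, and without TAC replicate 2 Scml2 gave -0.13 (up to 0.71 without others) and Pacsin1 0.13 (down to -2.64). Genes with few reads, such as Grm4 and Cpne5 in WT, are limited by counting error.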
